A study of Mus musculus with 14 samples.

Results

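The genes described here encode the subunits, assembly chaperones and regulators of the proteasome. They were chosen by symbol, as all genes named Psma, Psmb, Psmc, Psmd, Psme, Psmf or Psmg followed by a number. Of 22842 genes shared by both deposited count tables, 47 met the rule, and all 47 passed the filter on low counts in every fit. Psmb11, the catalytic subunit of the thymus, is listed in the second table only and had 2 counts in 425 cells, below a floor of 3 counts. Psma7 was not analysed here.

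The series holds single lineage-negative, Tom-positive mouse cells, where Tom is the reporter named in the labels, sorted into plates and sequenced from the 3′ end of each transcript. Day 3 was covered by 2 plates of mouse m4539, day 10 by 3 plates of mouse m4533, and day 17 by 4 plates of mouse m4528 and 2 each of mice m605 and m606. A plate with cells of m605 and m606 together entered no test, and these mice make up the second table, with the other mice in the first. The start from which days were counted is not stated, and the labels used here give no genotype, age or driver of the reporter.

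The proteasome is a barrel-shaped protease that degrades proteins tagged with ubiquitin. Its core particle is built from alpha rings and beta rings, the beta rings hold the catalytic sites, and a regulatory particle recognises and unfolds the substrates. In cells exposed to interferon and in many blood cells, the catalytic subunits Psmb5, Psmb6 and Psmb7 are replaced by Psmb8, Psmb9 and Psmb10, which gives the immunoproteasome and alters the peptides offered for antigen presentation.

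The stretches upstream of an annotated start of 4 catalytic genes are shown as examples of the immunoproteasome and constitutive genes compared further on. Psmb10 also has a window, which is not shown. The sequences are from RefSeq (GRCm38.p6), 250 bases before an annotated start, written 5′ to 3′ on the strand of the gene. Psmb8 lies at chr17:34197945-34198194 (plus strand) and Psmb9 at chr17:34187331-34187580 (minus strand), near each other in the major histocompatibility complex. Psmb5 lies at chr14:54617996-54618245 (minus strand) and Psmb6 at chr11:70525107-70525356 (plus strand). Capitals mark matches to TGACNNNGC, the core of the antioxidant response element, on either strand. The gene record of Psmb6 begins earlier, at chr11:70525324, so the end of its window, with the marked match, lies within that record.
Psmb8: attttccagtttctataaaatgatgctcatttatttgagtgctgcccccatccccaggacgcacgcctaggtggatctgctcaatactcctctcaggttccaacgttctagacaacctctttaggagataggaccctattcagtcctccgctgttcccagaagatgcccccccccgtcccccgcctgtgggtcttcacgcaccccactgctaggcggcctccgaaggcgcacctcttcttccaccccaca
Psmb9: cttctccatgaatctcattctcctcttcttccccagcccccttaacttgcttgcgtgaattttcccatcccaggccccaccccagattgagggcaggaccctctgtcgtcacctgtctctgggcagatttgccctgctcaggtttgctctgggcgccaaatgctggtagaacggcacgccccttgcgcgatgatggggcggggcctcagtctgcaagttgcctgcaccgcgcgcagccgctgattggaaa
Psmb5: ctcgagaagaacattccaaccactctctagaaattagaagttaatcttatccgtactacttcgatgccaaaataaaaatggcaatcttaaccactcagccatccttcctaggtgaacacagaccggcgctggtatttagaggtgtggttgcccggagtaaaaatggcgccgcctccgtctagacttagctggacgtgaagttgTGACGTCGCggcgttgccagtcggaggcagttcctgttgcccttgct
Psmb6: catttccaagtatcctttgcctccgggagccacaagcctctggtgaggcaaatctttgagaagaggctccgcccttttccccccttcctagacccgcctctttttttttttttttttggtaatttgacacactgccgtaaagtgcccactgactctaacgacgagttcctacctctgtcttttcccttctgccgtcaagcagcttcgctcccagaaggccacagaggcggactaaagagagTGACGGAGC

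Of the 47 genes, 39 had such a window in RefSeq. TGACNNNGC was found on either strand in 5 of the 39 (12.8%), namely Psmb5, Psmb6, Psmc6, Psmd9 and Psmd12, against 11.5% of all 27025 genes with a window. The core of the interferon-stimulated response element, GAAA repeated after 2 bases of any kind, was found on either strand in 3 of the 39 (7.69%), namely Psmb3, Psmd4 and Psmd9, against 3.46% of all genes. CCAAT was found in 12 of the 39 (30.8%) against 37.5%, and an NF-kB site, GGG and TTTCC with 2 bases of any kind between them, in 0 of the 39 against 1.65%, again on either strand. These are matches of letters within a short window and describe the windows only.

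After filtering, 1010 cells remained, 585 from the first table (mice m4539, m4533 and m4528) and 425 from the second (m605 and m606). The same 96 well barcodes served on the plates, so a cell was identified by plate and barcode. Cells were gated by 6 marker lists, none of which holds a proteasome gene, and 672 cells entered a gate: 191 HSC (hematopoietic stem cell), 126 megakaryocyte, 122 erythroid, 104 monocyte, 77 neutrophil and 52 basophil or mast cell. All 17 HSC markers and all 20 erythroid markers exceeded the cells of the other gates by more than 1.5 times in their own gate. In the megakaryocyte gate 13 of 15 markers did so. The gates were set on these same lists, so raised markers in their own gate are no separate check of identity. The neutrophil gate also held monocyte markers (median summed level 2073 CPM, counts relative to the library total, against 104 CPM in other cells), and all 8 dendritic cell markers were raised in the monocyte gate. Counts were summed per mouse and gate where at least 10 cells were available, which gave HSC sums for 5 mice, megakaryocyte sums for 4, erythroid, neutrophil and monocyte sums for 3 (m4528, m605 and m606) and basophil sums for 2. Mice m605 and m606 share a plate and the second table, and the labels name no litters. In the gate comparisons mouse was a block, so p-values measure the spread of gate differences between mice, pooled over all gates. Mouse m4539 had an HSC sum only and so carried no difference between gates. In the slopes over day, p-values measure the spread left between mice.

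The proteasome genes took a smaller mean share of the counts in the HSC gate than in any other gate. Their share was 1.29% ± 0.0885 (SD, n = 5) in the HSC gate, 1.51% ± 0.136 (n = 4) in the megakaryocyte gate and 1.85% ± 0.0402 (n = 3) in the erythroid gate. It was 1.70% ± 0.171 (n = 3) in the neutrophil gate and 1.67% ± 0.168 (n = 3) in the monocyte gate, and 1.66% and 1.33% in the 2 basophil sums. Within each mouse, every gate exceeded the HSC gate of the same mouse, from 1.05-fold (basophil, m606) to 1.59-fold (erythroid, m605). The erythroid and HSC values did not overlap, whereas the megakaryocyte value of m605 (1.35%) lay within the HSC range (1.17% to 1.40%).

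Depth and the share of cell cycle genes also differed between the gates. HSC cells were the shallowest, with median totals of 129034.5 counts (first table) and 60795 counts (second table). Across single cells the share rose with the total count, with Spearman's rho of 0.43 over 585 cells and 0.65 over 425 cells, where both measures come from the same library. These values pool all gates. Within a gate and table, rho ran from 0.09 (megakaryocyte, second table) to 0.67 (erythroid, first table). With the summed cycle genes it ran from -0.23 (monocyte, first table) to 0.40 (HSC, second table). Genes of the S phase took 0.247% ± 0.0762 of the counts in the HSC gate and 0.839% ± 0.0797 in the erythroid gate, and genes of the G2/M phase 0.145% ± 0.119 and 0.893% ± 0.0683. The megakaryocyte gate, of lower mean proteasome share than the neutrophil gate, took 0.687% and 0.591% in the S and G2/M genes. The neutrophil gate took 0.652% and 0.457%. The part of depth and the cell cycle in the share of the proteasome genes was not tested.

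**Figure D1:**
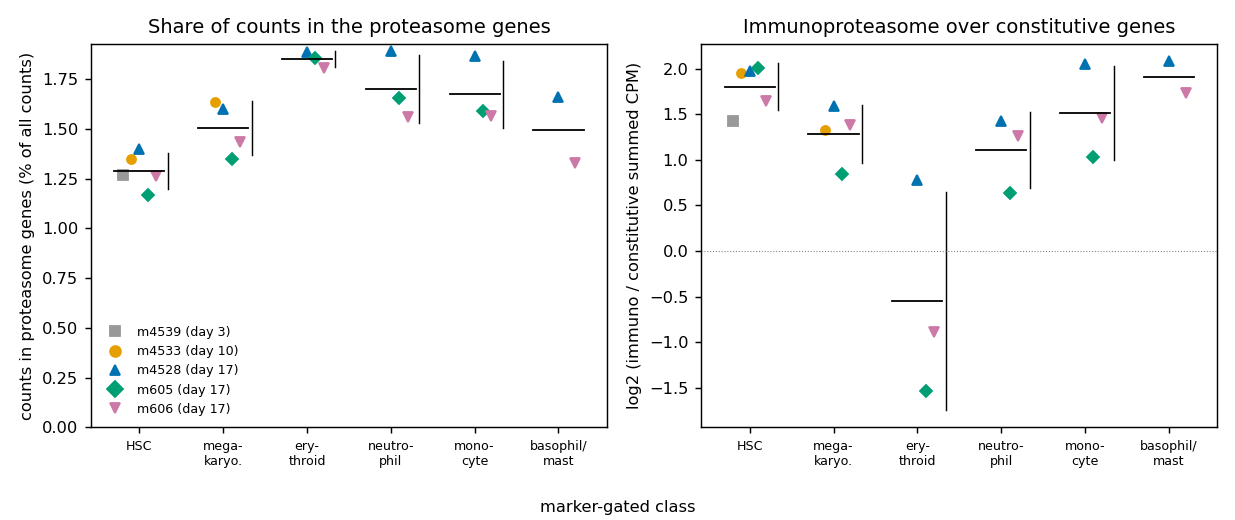
Left, counts in the 47 proteasome genes as percent of all counts; right, log2 of the summed CPM of Psmb8, Psmb9 and Psmb10 over that of Psmb5, Psmb6 and Psmb7, both by marker-gated class. Each symbol is a mouse, horizontal lines are means and vertical lines are ± 1 SD where a class has 3 or more mice. The erythroid class has the highest mean share (1.85%) and the lowest mean ratio (-0.55).

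The erythroid gate showed the widest split among the proteasome genes. Against the HSC gate, 16 of the 47 genes rose and 4 fell (edgeR, adjusted p under 0.05), where 5.94% of all 14826 genes tested rose and 5.0% fell. All 4 that fell belong to the interferon-inducible forms: the 3 immunoproteasome catalytic genes and Psme1, a subunit of an activator ring that opens the core. The median log2 difference was 0.93 over the 47 genes and 0.19 over all genes. Leaving out a mouse gave 3 higher without m4528, 8 without m605 and 2 without m606, and 2 lower without m605 and 1 without m606. No proteasome gene was called higher when the erythroid and HSC sums were fitted alone.

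Psmb8, which takes the place of Psmb5, was read at 1060, 1684, 1902, 1068 and 989 CPM in the HSC gate of m4539, m4533, m4528, m605 and m606. In the erythroid gate it was read at 663, 181 and 218 CPM in m4528, m605 and m606. The groups did not overlap, and m4528 was the highest erythroid value. Psmb8 fell by 2.08 on the log2 scale (SE 0.28, edgeR adjusted p = 0.000682, lower in 3 of 3 mice), and it passed the threshold under all 15 alternatives.

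Psmb9, which takes the place of Psmb6, was read at 190, 185, 140, 322 and 217 CPM in the HSC gate and at 56.9, 50.9 and 59.5 CPM in the erythroid gate. The erythroid values lay close together, below every HSC value. Psmb9 fell by 1.96 on the log2 scale (SE 0.36, edgeR adjusted p = 0.00421, lower in 3 of 3 mice), with an adjusted p of 0.0972 without m606.

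Psmb10, which takes the place of Psmb7, was read at 393, 434, 411, 462 and 311 CPM in the HSC gate and at 299, 199 and 163 CPM in the erythroid gate. The groups did not overlap, although the erythroid value of m4528 lay just under the lowest HSC value. Psmb10 fell by 0.80 on the log2 scale (SE 0.21, edgeR adjusted p = 0.0298), and leaving out m4528, m605 or m606 ended this call (adjusted p = 0.0906, 0.193 and 0.306). Psme1 fell by 0.80 (SE 0.22, edgeR adjusted p = 0.0331), from 583 ± 101 CPM (SD, n = 5) to 364 ± 22.4 CPM (n = 3). Its call was lost without m605 (adjusted p = 0.176) and without m606 (0.299).

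The constitutive catalytic genes did not share this fall. Psmb5, which carries the chymotrypsin-like activity of the constitutive core, was read at 42.2, 20.2, 32.0, 42.9 and 29.9 CPM in the HSC gate and at 86.0, 74.3 and 81.0 CPM in the erythroid gate. Every erythroid value lay above every HSC value. Psmb5 rose by 1.35 on the log2 scale (SE 0.41, edgeR adjusted p = 0.0493), a call lost without m4533, m4528, m605 or m606 (adjusted p = 0.0756, 0.301, 0.0727 and 0.322).

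Psmb6 was read at 564, 564, 589, 412 and 449 CPM in the HSC gate and at 494, 1161 and 720 CPM in the erythroid gate. The groups overlapped, and the log2 difference of 0.57 (SE 0.25) did not pass (edgeR adjusted p = 0.162). Psmb7 had few counts, with 5.72 ± 3.27 CPM (SD, n = 5) in the HSC gate and 14.7 ± 1.56 CPM (n = 3) in the erythroid gate, and its difference of 1.53 (SE 0.69) did not pass either (adjusted p = 0.173).

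**Figure D2:**
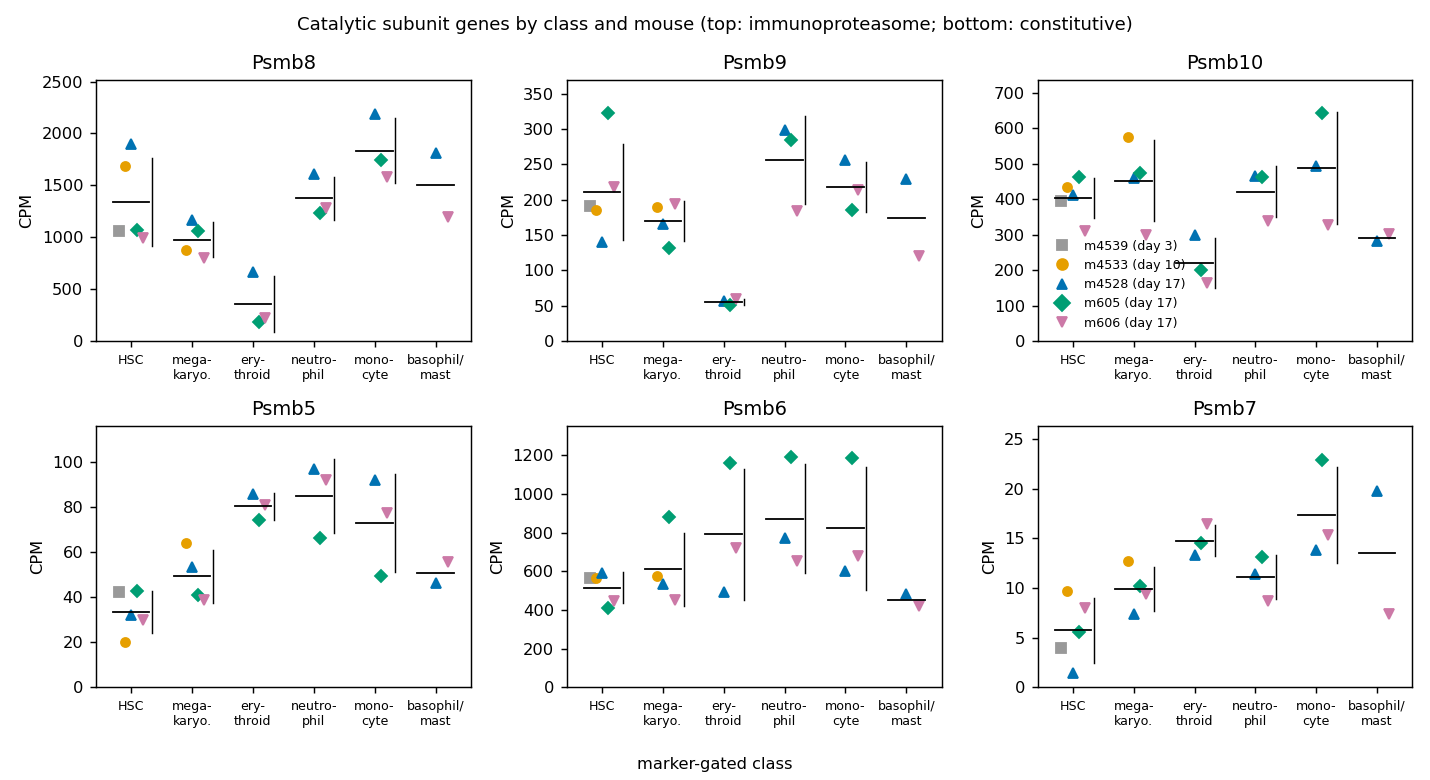
CPM of the 3 immunoproteasome genes (top) and the 3 constitutive genes (bottom) by marker-gated class. Each symbol is a mouse, horizontal lines are means and vertical lines are ± 1 SD where a class has 3 or more mice; every vertical axis starts at 0 and has its own range. The erythroid values of Psmb8 (181 to 663 CPM) and Psmb9 (50.9 to 59.5 CPM) lie below all HSC values.

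Summed over the 3 genes of each kind, the log2 ratio of immunoproteasome over constitutive CPM was 1.80 ± 0.256 (SD, n = 5) in the HSC gate and -0.55 ± 1.20 (n = 3) in the erythroid gate. Within a mouse, the erythroid ratio lay below the HSC ratio, with log2 differences of -1.20 in m4528, -3.54 in m605 and -2.53 in m606. Such differences were also negative in each mouse with a megakaryocyte sum, at -0.63, -0.39, -1.17 and -0.26 in m4533, m4528, m605 and m606. They were negative in each neutrophil sum too, at -0.55, -1.37 and -0.38 in m4528, m605 and m606. The monocyte differences were 0.07, -0.98 and -0.18 in the same mice, and the basophil ones 0.10 and 0.09 in m4528 and m606. The ratio was 1.28 ± 0.319 (n = 4) in the megakaryocyte, 1.11 ± 0.416 (n = 3) in the neutrophil and 1.51 ± 0.514 (n = 3) in the monocyte gate, and 2.08 and 1.73 in the basophil sums. With cells weighted equally, the mean ratio was 1.61 in the HSC, 1.36 in the megakaryocyte and -0.31 in the erythroid gate. It was then 1.04 in the neutrophil and 1.67 in the monocyte gate. The HSC ratio of m605, from 13 cells, was 1.35 with this weighting and 2.01 without it. Its megakaryocyte and monocyte ratios were 1.16 and 1.32 with this weighting, so the size of these differences depended on the weighting. Psmb6 was the main part of the constitutive sum. In m605 it was read at 412 CPM in the HSC gate and 1161, 1190 and 1187 CPM in the erythroid, neutrophil and monocyte gates. In m606 these values were 449, 720, 653 and 678 CPM. Over all kept cells, the ratio was -0.26 and 0.71 on the plates of m605. On the plates of m606 it was 0.84 and 0.96. Plates can differ in their mix of gates. The part of mouse and plate in the differences of the ratio was not tested. How counts of different genes compare with each other was not tested. Only the differences of this ratio between gates can therefore be read, not its sign.

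The erythroid gate of m4528 had a lower level of erythroid markers than those of m605 and m606. The median summed erythroid marker level per cell was 14201 CPM in m4528, 21897 CPM in m605 and 21904 CPM in m606. Across single cells of the erythroid gate, pooled over mice and days within a table, Psmb8 was lower at a higher erythroid marker score, with Spearman's rho of -0.65 over the first table's 35 cells and -0.63 over the second table's 87. Of the first table's cells 24 came from m4528, 7 from m4533 and 4 from m4539, and of the second table's 37 came from m605, 34 from m606 and 16 from the plate with both. Within a mouse, rho for Psmb8 was -0.59 in m4528, -0.55 in m605 and -0.83 in m606. Psmb8 had the most counts of the 3 immunoproteasome genes, and the others gave weaker values, with -0.24 and -0.14 for Psmb9 and -0.30 and -0.50 for Psmb10 in the first and second table. Among the constitutive genes rho was 0.26 and -0.03 for Psmb5, -0.02 and 0.02 for Psmb6 and 0.42 and 0.14 for Psmb7. The summed immunoproteasome CPM gave -0.75 and -0.66. The summed constitutive CPM, of which Psmb6 was the main part, gave -0.01 in both tables. The total count of these cells rose with the score in the first table (0.70) and less so in the second (0.11), and score and levels come from the same libraries. The median cell of the gate held 813 CPM of Psmb8 in the first table and 95.3 CPM in the second.

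**Figure D3:**
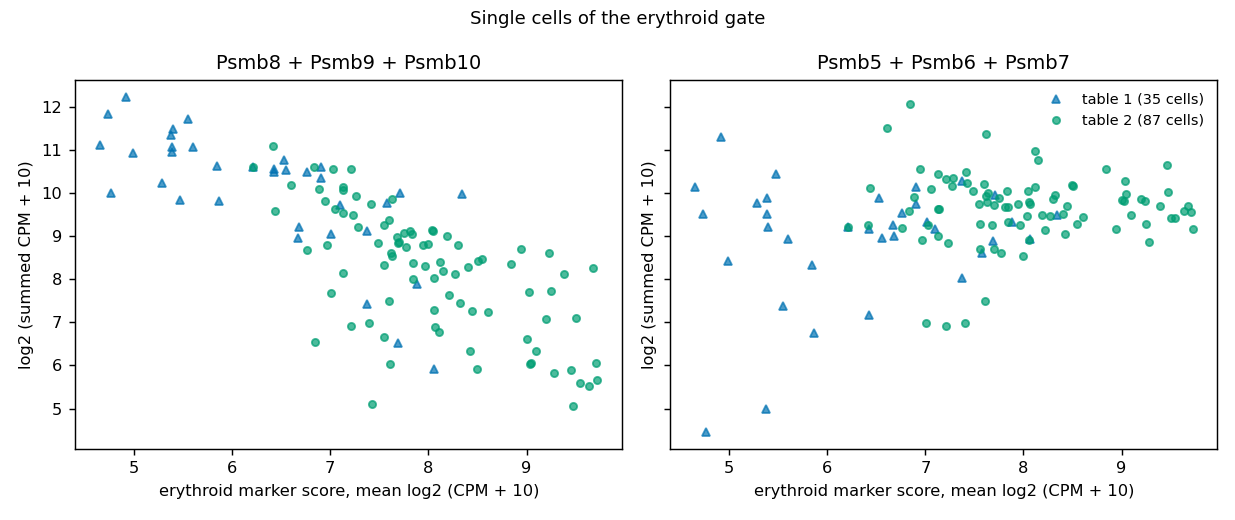
Single cells of the erythroid gate, with the erythroid marker score (mean log2 of CPM + 10 over the markers) on the horizontal axis and log2 of summed CPM + 10 on the vertical axis, for the 3 immunoproteasome genes (left) and the 3 constitutive genes (right). The immunoproteasome sum is lower in cells of higher score in both tables (rho of -0.75 and -0.66), and the constitutive sum, mostly Psmb6, gives -0.01 in both.

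The rise in the erythroid gate ran through the core, the regulatory particle and the chaperones. Of the 7 alpha genes 2 rose (Psma2 and Psma5), of the 4 structural beta genes 1 (Psmb4) and of the 6 ATPase genes 3 (Psmc2, Psmc5 and Psmc6). Of the 11 other regulatory genes 6 rose and of the 7 assembly chaperones 3, where 5.94% of all genes tested rose. Psmd4, a receptor for ubiquitin chains, rose by 1.49 on the log2 scale (SE 0.21, edgeR adjusted p = 0.000946), from 273 ± 126 CPM (SD, n = 5) to 590 ± 125 CPM (n = 3). Its HSC values were 281, 481, 254, 169 and 178 CPM and its erythroid values 734, 516 and 518 CPM. The erythroid values all lay above the HSC values, of which that of m4533 was the highest. Psmd4 kept its call with each mouse left out in turn, narrowly without m4528 (edgeR adjusted p = 0.04997) and m606 (0.04578). Mice m4539 and m4533 have no erythroid sum. The call was lost when the erythroid and HSC sums were fitted alone.

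Psmd6, a subunit of the lid, rose by 1.88 (SE 0.35, adjusted p = 0.00467), from 166 ± 73.1 to 530 ± 25.1 CPM. Psmd14, the deubiquitinase that removes ubiquitin from substrates, rose by 1.22 (SE 0.23, adjusted p = 0.0055), from 203 ± 63.5 to 439 ± 70.8 CPM. For both genes the erythroid and HSC values did not overlap. The call was lost without m4528 for Psmd6 (edgeR adjusted p = 0.0632) and for Psmd14 (0.128), and without m606 for Psmd14 (0.107). The chaperones that rose were Psmg3 (2.10, SE 0.56), Psmd9 (1.87, SE 0.51) and Psmg2 (1.22, SE 0.28), with edgeR adjusted p of 0.0288, 0.0313 and 0.0152. Among the other regulatory genes Psmd1, Psmd7 and Psmd11 also rose, by 1.5, 1.07 and 0.93. Without m4528 or m606 the calls of these 3 chaperones and of Psmd1 were lost, and without m605 those of Psmd9, Psmg2 and Psmd1. The values of Psmd1 and Psmd11 overlapped between the gates.

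Of the other activators and the inhibitor, none passed in the erythroid gate. Psme2, the partner of Psme1 in the same ring, differed by 0.20 (SE 0.32, edgeR adjusted p = 0.756). Psme3, an activator found in the nucleus, differed by 2.18 (SE 0.79, adjusted p = 0.0952), and Psme4, another activator, by 0.76 (SE 0.95, adjusted p = 0.665). Psmf1, an inhibitor of the core, differed by 0.37 (SE 0.50, adjusted p = 0.688). Psma8, the alpha subunit of the testis, was at 44.4 ± 48.6 CPM in the HSC gate and 16.9 ± 9.60 CPM in the erythroid gate (adjusted p = 0.467).

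**Figure D4:**
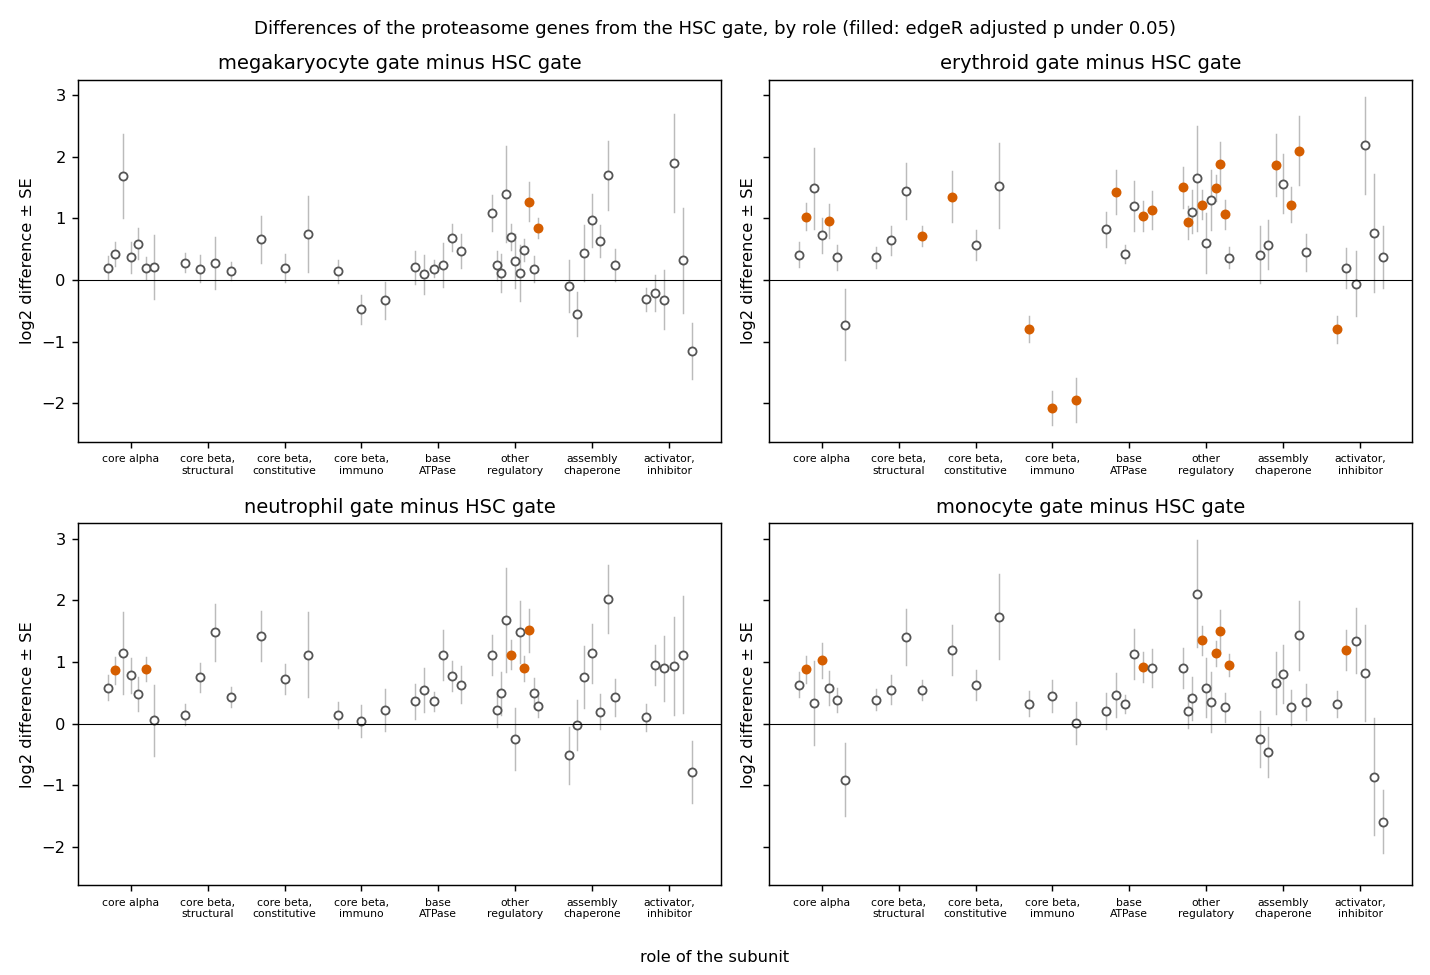
Log2 difference ± SE of each of the 47 proteasome genes from the HSC gate, ordered by role of the subunit, for 4 gates. Filled symbols passed an edgeR adjusted p of 0.05. In the erythroid gate the 3 immunoproteasome genes lie below 0 while 16 genes of other roles are called above it.

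Genes that work beside the proteasome were listed for comparison. Among the proteasome partners, Zfand5, a proteasome-binding activator, fell in the erythroid gate (-1.58, SE 0.28, edgeR adjusted p = 0.0035). The ubiquitin gene Ubb fell there as well (-1.28, adjusted p = 0.00269). Of 13 antigen processing genes 5 fell and 1, the chaperone Canx, rose, where 5.0% of all genes tested fell and 5.94% rose. B2m, the light chain of class I molecules, fell by 1.63 (SE 0.15, adjusted p = 5.9e-05) and H2-K1 by 1.70 (SE 0.21, adjusted p = 0.000401). The transcription factor Irf1 also fell, with a log2 difference of -4.90.

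Interferon response genes were also listed. Of 25 tested, 9 fell against the HSC gate in the erythroid gate, 7 in the monocyte, 2 in the neutrophil and 2 in the megakaryocyte gate. Of all genes tested 5.0%, 2.87%, 1.56% and 1.19% fell in these gates. Of the list 0 rose in any of these, where 5.94%, 4.97%, 3.6% and 1.94% of all genes rose. The list took 0.303% ± 0.115 of the counts in the HSC gate, 0.106% ± 0.0363 in the megakaryocyte gate and 0.0425% ± 0.0099 in the erythroid gate. It took 0.0668% ± 0.0174 in the monocyte gate and 0.0647% ± 0.0317 in the neutrophil gate. The mean share of the list was thus lower in all of these gates than in the HSC gate. The part of this list in the fall of the immunoproteasome genes in the erythroid gate was not tested.

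The erythroid gate was also compared with the megakaryocyte gate, a lineage with which it shares progenitors. Against it 3 proteasome genes fell and 1 rose, where 2.05% of all genes tested fell and 1.24% rose. The 3 that fell were again Psmb8 (-1.60, SE 0.27, edgeR adjusted p = 0.00629), Psmb9 (-1.62, SE 0.36, adjusted p = 0.0244) and Psmb10 (-0.94, SE 0.22, adjusted p = 0.0315), and Psmd4 rose by 1.0 (SE 0.20, adjusted p = 0.0162). Psmb8 was read at 875, 1167, 1059 and 803 CPM in the megakaryocyte gate of m4533, m4528, m605 and m606, above each erythroid value. Without m4528, 1 gene fell and 0 rose, and without m605 or m606 none was called in either direction. This contrast shares the erythroid sums with the one against the HSC gate.

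Few proteasome genes were called between the megakaryocyte and the HSC gate, although 39 of the 47 differences were positive. On data simulated for this comparison 0% of 2-fold and 9.18% of 4-fold changes were recovered. Few genes were changed in the simulation, so these rates do not measure how often real changes of that size are called. The low number of calls does not show that levels were alike. Against the HSC gate 2 of the 47 genes rose and 0 fell, where 1.94% of all genes tested rose and 1.19% fell, and the median log2 difference was 0.25 over the 47 genes and 0.14 over all genes. Psmd8, a lid subunit, rose by 0.85 (SE 0.16, edgeR adjusted p = 0.0146), from 316 ± 39.6 CPM (SD, n = 5) to 585 ± 60.1 CPM (n = 4), with no overlap. Psmd6 rose by 1.27 (SE 0.32, adjusted p = 0.0477). Psmb8 differed by -0.48 (SE 0.23, adjusted p = 0.299), Psmb9 by -0.33 (SE 0.31, adjusted p = 0.621) and Psmb10 by 0.14 (SE 0.19, adjusted p = 0.768). Without m4528 or without m606 no gene was called, and Psmd6 and Psmd8 also lost their calls without m4533 or m605, where 1 other gene was called, Psmd1 and Psmd14 in turn (named after their values were seen).

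In the monocyte gate 8 of the 47 genes rose and 0 fell, where 4.97% of all genes tested rose and 2.87% fell. Regulatory genes made up 5 of the 8: Psmd14 (1.35, SE 0.23, edgeR adjusted p = 0.00396), Psmd4 (1.14), Psmd8 (0.95), Psmd6 (1.5) and the ATPase Psmc5 (0.91). The alpha genes Psma2 and Psma4 rose by 0.88 and 1.03. Psme2 was read at 204, 248 and 152 CPM in the monocyte gate of m4528, m605 and m606 and at 76.9 to 104 CPM in the HSC gate. All monocyte values were above the HSC values, and Psme2 rose by 1.19 (SE 0.32, adjusted p = 0.0393).

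Psmb8 was read at 2183, 1741 and 1578 CPM in the monocyte gate. The value of m4528 was the highest of any gate, but the monocyte and HSC values overlapped. The log2 difference of 0.45 (SE 0.26) did not pass (edgeR adjusted p = 0.327), nor did those of Psmb9 (0.01, SE 0.34) and Psmb10 (0.33, SE 0.21). Without m4528 or m606 no proteasome gene was called in the monocyte gate, and without m605 4 were.

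In the neutrophil gate 5 of the 47 genes rose and 0 fell, where 3.6% of all genes tested rose and 1.56% fell. They were Psmd14 (1.12, SE 0.23, edgeR adjusted p = 0.0151), Psma6 (0.88), Psmd6 (1.52), Psmd4 (0.90) and Psma2 (0.86). Psmb8 was read at 1608, 1230 and 1284 CPM, within the HSC range. Without m4528 or m606 no gene was called, and without m605 2 were. Between the neutrophil and monocyte gates 0 of the 47 genes passed by edgeR in either direction, where 0.128% and 0.0877% of all genes did. Of the 47 genes, 3 had an unadjusted p under 0.05 (7.78% of all genes), and DESeq2 called 0 (2.47% of all genes).

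In the basophil or mast cell gate, which 2 mice filled, 0 of the 47 genes passed by edgeR in either direction, where 0.331% and 0.00674% of all genes did. Of the 47 genes, 6 had an unadjusted p under 0.05 (13.1% of all genes), and DESeq2 called 0 (6.32% of all genes). The lowest adjusted p was that of Psmd4 (0.92, SE 0.23, adjusted p = 0.119). Psmb8 was read at 1812 CPM in m4528 and 1194 CPM in m606, within the HSC range.

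The order of Psmb8 over the gates, by mean CPM, was monocyte, basophil, neutrophil, HSC, megakaryocyte and erythroid. The ranges of neighbours in this order overlapped except between the megakaryocyte and the erythroid gate. The means rest on different mice. In m4528 the HSC value (1902 CPM) lay above the basophil (1812 CPM) and neutrophil (1608 CPM) values. In m605 and m606 the HSC values (1068 and 989 CPM) lay below the neutrophil ones (1230 and 1284 CPM), as below the basophil one of m606 (1194 CPM). Over the 20 sums, the 5 genes outside the family whose log2 CPM followed Psmb8 most closely were Alox5ap (Pearson's r = 0.97), Pkm (0.96), Laptm5 (0.95), Itm2b (0.94) and Coro1a (0.91). Within the family the closest were Psmb9 (0.77), Psme1 (0.74) and Psmb10 (0.72). The sums share mice and plates, so these values describe likeness in this set only.

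The change with day was fitted over all cells of a mouse. By edgeR 0 of the 47 genes passed, as did 0.0% of all 16740 genes tested, and 6 of the 47 had an unadjusted p under 0.05 (8.8% of all genes). DESeq2 called 0 of the 47 (3.65% of all genes). Of the 47 slopes 44 were positive, and their median was a log2 change of 0.54 per 14 days, against 0.03 over all genes. The lowest adjusted p was that of Psma1 (0.91, SE 0.27, adjusted p = 0.469), which was read at 528 CPM at day 3, 743 CPM at day 10 and 990, 991 and 925 CPM at day 17. The day 3 value was the lowest and the day 17 values did not overlap with the others. The HSC gate held 89 of 190 cells in m4539 (day 3) and 20 of 107 in m4533 (day 10). At day 17 it held 21 of 288 cells in m4528, 13 of 143 in m605 and 34 of 189 in m606. The part of these shares in the slopes was not tested.

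The change with day was also fitted within the HSC gate. By edgeR 0 of the 47 genes passed, as did 0.0% of all 10830 genes tested, 0 had an unadjusted p under 0.05 (3.71% of all genes), and DESeq2 called 0 (0.194% of all genes). Of the 47 slopes 24 were positive, and their median was 0.06 against -0.20 over all genes. Both fits have 2 residual degrees of freedom. On simulated data with few changed genes they recovered 0% of 4-fold changes. These counts of 0 therefore do not show that levels stayed the same. The lowest unadjusted p was that of Psmb8 (0.94 per 14 days, SE 0.50, adjusted p = 1.0). Days 3 and 10 had 1 mouse each, so day and mouse cannot be told apart there.

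**Figure D5:**
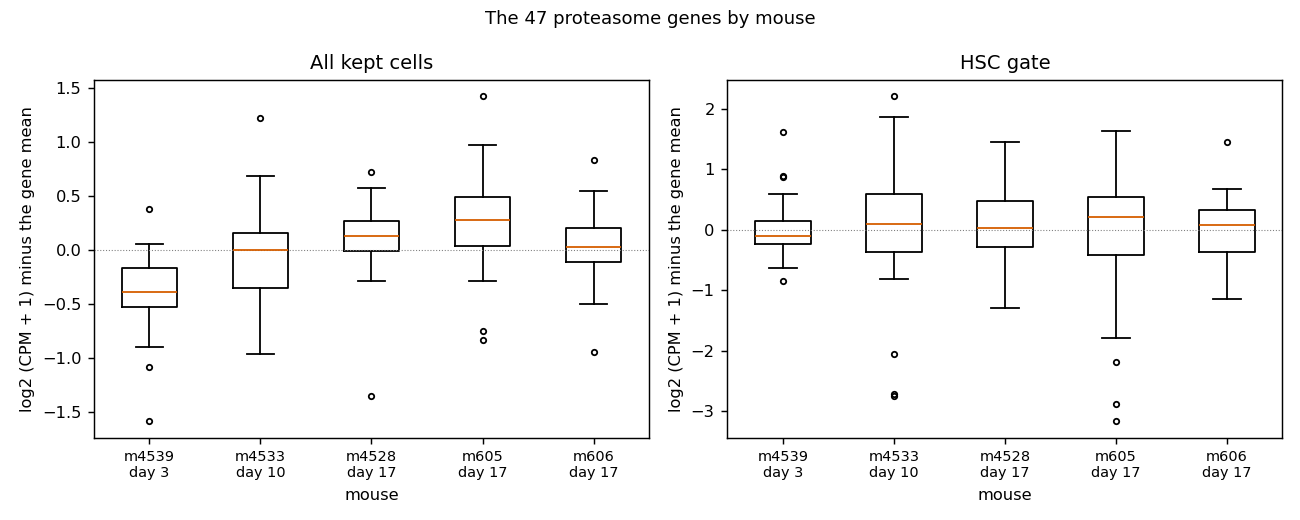
Log2 of CPM + 1 of the 47 proteasome genes minus the mean of each gene over the 5 mice, for all kept cells (left) and the HSC gate (right). Boxes span the quartiles over genes with the median as a line, whiskers reach 1.5 times the box height, and points are single genes. The day 3 mouse has the lowest median in all kept cells (-0.38) and in the HSC gate (-0.10), where the highest is 0.21.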

How the data were processed

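Whole-number counts were used as the authors deposited them, in 2 tables with genes in rows and barcodes in columns, and the submitters' processing notes name GRCm38 as the build. The sources used here give no aligner, counter or use of molecular identifiers, and a count was therefore taken as 1 read. Barcodes with at least 500 genes and 10000 counts were kept (1010 of 9357), with 25482791 to 64257177 counts per mouse. Each cell was scored on 6 marker lists as mean log2 (CPM + 10), standardized within its table. It entered the gate of its highest list at 0.5 SD or more with a lead of 0.5 SD. This scoring rule and its thresholds were set after seeing the data, 338 cells stayed ungated, and no doublet caller was run on the sorted wells.

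Counts were summed per mouse and gate (10 cells or more) and tested with edgeR 4.0.16 (quasi-likelihood, TMM, filterByExpr) in R 4.3.3, in 1 fit with class and mouse as terms (20 sums, 10 residual degrees of freedom). Slopes over day had the table as a term, so they rest on the 3 mice of the first table. P-values were adjusted by Benjamini-Hochberg over all genes tested. DESeq2 1.42.0, other scalings, filters and gates, and leaving out each mouse were alternatives. On data simulated for the erythroid against HSC comparison over 14826 genes, 6.25% of 4-fold and 0% of 2-fold changes were recovered, with 0 false calls. Few genes were changed in these data, and the real fits called some changes under 2-fold. Such rates therefore do not measure how often real changes are called. For both slopes over day 0% of 4-fold changes were recovered. CPM are on the scale of the TMM fit, shares use raw totals, and how counts were split between Psme2 and its near-identical copy Psme2b is not known.

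Named with values were Psmb5 to Psmb10, Psme1 to Psme4, Psmf1, Psma8 and Psmb11, and in each comparison the genes past an adjusted p of 0.05, up to the 12 of largest change, or the 4 of lowest p where none passed. Up to 4 genes were named from each other list. Some results of these lists are not reported here. The genes and lists were chosen with earlier results of these data known.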

Additional observations from a re-analysis of the deposited data

Results flagged for a closer look

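Psme2 in the megakaryocyte gate of mouse m605 was read at 59.1 CPM, far below the other 3 mice, which lay between 79.8 and 82.8 CPM. It stood apart by Dixon's criterion for a value far from the others of its group. Of 22 groups tested 1 held such a value, and chance gives about 1 in 20.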

How the results depend on the processing

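The class sums rest on 2 to 5 mice and the tables differ in depth, so calls near the threshold moved. For named genes called by edgeR, 288 alternative values kept the call, 207 lost it and 0 changed direction. Psmb8 kept its call in the erythroid against HSC comparison under all 15 alternatives. For named genes not called, 1488 alternative values stayed so, 10 passed and 134 changed sign, and no direction was read for these genes. The cause of the changes was not tested. The median of all genes in the erythroid against HSC comparison was 0.19 with TMM and -0.05 with DESeq2 size factors, and the median of the 47 genes lay 0.75 and 0.73 above it.

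Mouse was a block in the class comparisons, because sums of different classes came from the same mouse, and the fits with no replicate block stand among the alternatives. Fits with no scaling between samples and gate scores over both tables were chosen after seeing the data. The erythroid share of counts moved from 1.85% to 1.71% with cells weighted equally, and the neutrophil share from 1.70% to 1.91% with gate scores over both tables. For megakaryocyte against HSC, the 2 genes called higher became 4 with the DESeq2 test, 1 with DESeq2 size factors or no low-count filter or no replicate block, 0 with the 2 classes alone or the filter of 500 genes alone, 5 with gate scores over both tables and 0 to 2 with a mouse left out. For megakaryocyte against HSC, the 0 genes called lower became 1 with the DESeq2 test. For erythroid against HSC, the 16 genes called higher became 9 with DESeq2 size factors or the stricter gate, 0 with the 2 classes alone, 10 with cells scaled to equal totals and 2 to 16 with a mouse left out. For erythroid against HSC, the 4 genes called lower became 2 with no low-count filter or no replicate block, 1 with the 2 classes alone or the stricter gate and 1 to 4 with a mouse left out. For monocyte against HSC, the 8 genes called higher became 4 with DESeq2 size factors or no scaling between samples or the stricter gate, 0 with the 2 classes alone and 0 to 8 with a mouse left out. For monocyte against HSC, the 0 genes called lower became 1 with the DESeq2 test or no replicate block. For neutrophil against HSC, the 5 genes called higher became 10 with the DESeq2 test, 2 with DESeq2 size factors or the stricter gate or cells scaled to equal totals or gate scores over both tables, 0 with the 2 classes alone and 0 to 5 with a mouse left out. For basophil against HSC, the 0 genes called higher became 1 with gate scores over both tables. For erythroid against megakaryocyte, the 1 gene called higher became 4 with the DESeq2 test or gate scores over both tables, 2 with no low-count filter, 0 with the 2 classes alone or cells scaled to equal totals, 5 with the stricter gate, 3 with the filter of 500 genes alone and 0 to 1 with a mouse left out. For erythroid against megakaryocyte, the 3 genes called lower became 0 with the 2 classes alone, 1 with the stricter gate and 0 to 3 with a mouse left out.

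With the stricter gate, the log2 values that changed sign were in megakaryocyte against HSC Psmb9 0.17, Psmb6 -0.17, Psme1 0.093, in neutrophil against HSC Psmb8 -0.19, in basophil against HSC Psmb8 -0.21, Psmb9 0.21, Psmb10 0.10, Psmb6 -0.17, in erythroid against megakaryocyte Psme4 -0.27, in neutrophil against monocyte Psmb9 -0.016, in slope in HSC cells Psmb10 -0.25, Psmb5 0.012, Psme1 -0.24, Psme4 0.63. With gate scores over both tables, the log2 values that changed sign were in megakaryocyte against HSC Psmb9 0.042, in neutrophil against HSC Psmb8 -0.26, Psme4 -0.085, Psma8 -0.88, in basophil against HSC Psmb9 0.20, in neutrophil against monocyte Psme1 0.31, in slope in HSC cells Psmb6 -0.16. With the DESeq2 test, the log2 values that changed sign were in megakaryocyte against HSC Psmb10 -0.0060, in erythroid against HSC Psme2 -0.057, in monocyte against HSC Psmb9 -0.18, in neutrophil against HSC Psmb8 -0.12, Psmb10 -0.020, Psme1 -0.054, Psma8 -0.082, in basophil against HSC Psmb8 -0.10, Psmb6 -0.11, Psme1 -0.062, in slope over all cells Psme4 -0.090, in slope in HSC cells Psmf1 0.018. With DESeq2 size factors, the log2 values that changed sign were in megakaryocyte against HSC Psmb10 -0.0084, in erythroid against HSC Psme2 -0.054, in monocyte against HSC Psmb9 -0.19, in neutrophil against HSC Psmb8 -0.12, Psmb10 -0.022, Psme1 -0.058, Psma8 -0.091, in basophil against HSC Psmb8 -0.10, Psmb6 -0.11, Psme1 -0.064, in slope over all cells Psme4 -0.10, in slope in HSC cells Psmf1 0.020. With the filter of 500 genes alone, the log2 values that changed sign were in megakaryocyte against HSC Psme4 -0.56, in erythroid against HSC Psme4 -0.15, in monocyte against HSC Psme1 -0.20, in neutrophil against HSC Psmb8 -0.0044, Psmb10 -0.30, Psme1 -0.16, Psme4 -0.31, Psma8 -1.33, in basophil against HSC Psme1 -0.19, Psma8 -0.10, in neutrophil against monocyte Psme1 0.044, Psme3 -0.31, Psmf1 -0.041, in slope in HSC cells Psmb6 -0.22, Psme1 -0.069, Psmf1 0.059. With cells scaled to equal totals, the log2 values that changed sign were in megakaryocyte against HSC Psma8 -0.11, in basophil against HSC Psmb6 -0.071, in erythroid against megakaryocyte Psme3 -0.13, Psme4 -0.0098, in slope over all cells Psme4 -0.20, in slope in HSC cells Psmb10 -0.50, Psmb6 -0.0072, Psme3 -0.35, Psme4 0.025. With no scaling between samples, the log2 values that changed sign were in monocyte against HSC Psmb9 -0.12, in neutrophil against HSC Psmb8 -0.030, Psma8 -0.017, in slope over all cells Psme4 -0.093, in slope in HSC cells Psme1 -0.025. With the 2 classes alone, the log2 values that changed sign were in monocyte against HSC Psmb9 -0.12, in basophil against HSC Psmb6 -0.23, Psmf1 0.11, in neutrophil against monocyte Psme3 -0.20. With no replicate block, the log2 values that changed sign were in neutrophil against HSC Psma8 -0.15, in basophil against HSC Psmb6 -0.21. Without the table term, the log2 values that changed sign were in slope over all cells Psmg4 0.86, Psmb9 -0.013, Psmb10 -0.0027, Psmb6 0.47, Psme4 -0.46, Psmf1 0.17, Psma8 -0.55, in slope in HSC cells Psmb9 0.48, Psmb5 0.067, Psmb6 -0.068, Psmb7 0.17, Psmf1 0.35, Psma8 -0.85. With no low-count filter, the log2 values that changed sign were in slope in HSC cells Psmb10 -0.0020, Psmb6 -0.0030, Psme1 -0.056. With each mouse left out in turn, the ranges that crossed 0 were in megakaryocyte against HSC Psmb9 -0.48 to 0.071, Psme4 -0.29 to 0.98, Psma8 -0.15 to 0.74, in monocyte against HSC Psmb9 -0.32 to 0.40 (including -0.12), in neutrophil against HSC Psmb9 -0.064 to 0.60, Psme1 -0.28 to 0.39, in basophil against HSC Psmb9 -1.02 to 0.30 (including 0.0013), Psmb10 -0.44 to 0.021, Psmb6 -0.12 to 0.23, Psme1 -0.38 to 0.52, in erythroid against megakaryocyte Psme3 -0.23 to 0.66 (including -0.057), in neutrophil against monocyte Psme1 -0.47 to 0.0026, Psme2 -0.42 to 0.010, Psme3 -0.41 to 0.58 (including -0.070), in slope over all cells Psmb10 -0.47 to 1.08, Psmb5 -0.54 to 1.86, Psmb6 -0.72 to 0.38, Psme1 -0.25 to 1.22, Psme2 -0.54 to 1.24, Psme3 -1.22 to 3.19, Psme4 -0.71 to 0.66 (including -0.15), Psmf1 -0.74 to 0.38, Psma8 -1.01 to 2.72, in slope in HSC cells Psma6 -0.47 to 2.20, Psma1 -0.34 to 1.89, Psmb5 -2.09 to 1.56, Psmb7 -5.26 to 2.60, Psme1 -0.11 to 0.39, Psme3 -5.01 to 6.50, Psme4 -1.35 to 0.89, Psmf1 -2.69 to 2.50, Psma8 -4.27 to 5.83.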
